A study of Saccharomyces cerevisiae BY4741 with 6 samples.

Results

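The genes described here encode the subunits of the 3 nuclear RNA polymerases of *Saccharomyces cerevisiae*, and their transcripts were compared between cells treated with neomycin and untreated cells. The members were taken by name, as the genes whose symbol is *RPA*, *RPB* or *RPC* followed by a number, together with *RPO21*, *RPO26*, *RPO31* and *RET1*, a rule that uses no expression value but was chosen with earlier results of these data known. The rule found 31 of the 5449 genes on the array, each with 1 probe set. Of these, 7 belong to RNA polymerase I alone, 10 to RNA polymerase III alone, 2 to both I and III, 7 to RNA polymerase II alone and 5 to all 3 enzymes, so that the assembled enzymes count 14, 17 and 12 subunits in the order I, III and II. The treated group was BY4741 in rich medium (YPD) with neomycin sulfate at 10 mg/mL, an aminoglycoside antibiotic, for 4 h at 30 °C, and the other group was BY4741 kept for the same 4 h without it. BY4741 is a haploid laboratory strain of mating type a that carries deletions in *HIS3*, *LEU2*, *MET17* and *URA3*, so that both groups share them. Each group held 3 cultures, labelled as biological replicates, with 1 Affymetrix Yeast Genome 2.0 array for each culture. Every value below is the authors' GCRMA signal on the log2 scale, and a log2 fold change is the neomycin mean less the untreated mean, each over 3 arrays.

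RNA polymerase I transcribes the precursor of the large ribosomal RNAs, RNA polymerase II the messenger RNAs and RNA polymerase III the transfer RNAs and the smallest ribosomal RNA. The enzymes are built alike, around a pair of large catalytic subunits, a platform related to the bacterial alpha subunits and a stalk, and they share a core of small subunits. In growing yeast most transcription goes to ribosomal and transfer RNA, and the genes of RNA polymerases I and III are known as part of the ribosome biogenesis group, which is expressed strongly in rich medium and less under stress.

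The arrays themselves were alike in scale, with medians over all probe sets from 8.84 to 8.93 on the neomycin arrays and from 8.90 to 8.92 on the untreated arrays. Pearson's r between arrays, across genes, ran from 0.979 to 0.993, and the highest was that of neomycin replicate 1 with untreated replicate 2. The medians of all genes relative to the untreated mean were −0.11, 0.028 and −0.048 on neomycin replicates 1, 2 and 3. *LEU2*, *MET17* and *URA3* read between 3.21 and 4.90 on every array and *HIS3*, of which part of the sequence remains in this strain, averaged 10.53 with neomycin and 10.33 without it, while the lowest reading of any polymerase subunit was 8.30. The a-cell genes *STE2*, *STE6*, *MFA1*, *MFA2* and *BAR1* read between 10.65 and 12.86 on all arrays. All 5 had log2 fold changes below 0, the lowest being that of *MFA1* (−0.69), and in 4 the groups did not overlap, where over all genes 62.1% had values below 0 and 12.8% did not overlap with neomycin below. All 4 markers of α cells had log2 fold changes below 0 and 2, *SAG1* and *MF(ALPHA)1*, did not overlap between the groups. The summed linear signal of the 4 ran from 285 to 351 with neomycin and from 375 to 556 without it. That of the 5 a-cell genes ran from 15409 to 18300 with neomycin and from 20912 to 23894 without it. *SAG1* read between 7.57 and 8.59, and *STE3* and *MF(ALPHA)2* between 5.05 and 6.59. *MF(ALPHA)1*, which encodes the α pheromone, read between 3.12 and 3.87, near the readings of the deleted *LEU2*, *MET17* and *URA3*. Its readings therefore do not show that the transcript was present. The part of these markers in the values below was not tested.

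The transcripts of RNA polymerases I and III had slightly lower mean signals with neomycin, without passing the test across all genes. Those of RNA polymerase II and of the common subunits were not set apart in the same way. The difference between these groups of genes was not tested. All 19 genes of RNA polymerase I, III or both, without the common subunits, had log2 fold changes below 0 (median −0.25). In 10 of them each neomycin array lay below each untreated array. With the common subunits counted in, 13 of the 14 genes of RNA polymerase I had values below 0 (median −0.13), and 5 did not overlap. For RNA polymerase III these were 16 of 17 (median −0.16), and 6 did not overlap. Of the 12 genes of RNA polymerase II and of the common core, 8 had values below 0, the median was −0.040 and the arrays overlapped for all 12. Over all 5449 genes the median was −0.051, 62.1% had values below 0, and 12.8% did not overlap with neomycin below, against 5.58% with neomycin above. With a second quantile normalisation these shares over all genes were 10.1% below and 8.50% above, and 9.43% and 8.75% when the arrays were centred on their medians. After that quantile normalisation 9 subunits lay below and 1 above, and after centring 10 and 1. The RNA came from whole cultures, so that fewer cells with a transcript and less of it per cell cannot be told apart, and since the arrays were normalised to each other, a shift common to all transcripts would not be seen. With centring the median log2 fold change of all the subunits went from −0.141 to −0.106, and that of all genes from −0.051 to −0.015. After the second quantile normalisation these medians were −0.111 and −0.022. The counts of separated subunits rest on few genes, and whether the scaling moved them less than all genes was not tested.

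None of the 31 subunits passed the test across all genes (limma, Benjamini-Hochberg, adjusted p under 0.05), where 5 genes (0.0918%) were lower and 23 (0.422%) higher. At an unadjusted p under 0.05, 8 subunits were lower, beside 8.33% of all genes, and 0 were higher, beside 5.05%. These 8 were *RPA135*, *RPA12*, *RPA49* and *RPA43* of RNA polymerase I and *RPC34*, *RPC31*, *RPC25* and *RPC37* of RNA polymerase III. By the methods' criteria, which ask for a Cyber-T p of at most 0.05 and a mean signal that is 1.7 times or more, or 0.6 times or less, the untreated one, 0 subunits were past the limits, because their ratios lay between 0.773 and 1.09. With the Cyber-T p alone 6 were lower, beside 8.30% of all genes, namely *RPA135*, *RPA12*, *RPA49*, *RPA43*, *RPC34* and *RPC31*.

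**Figure D1:**
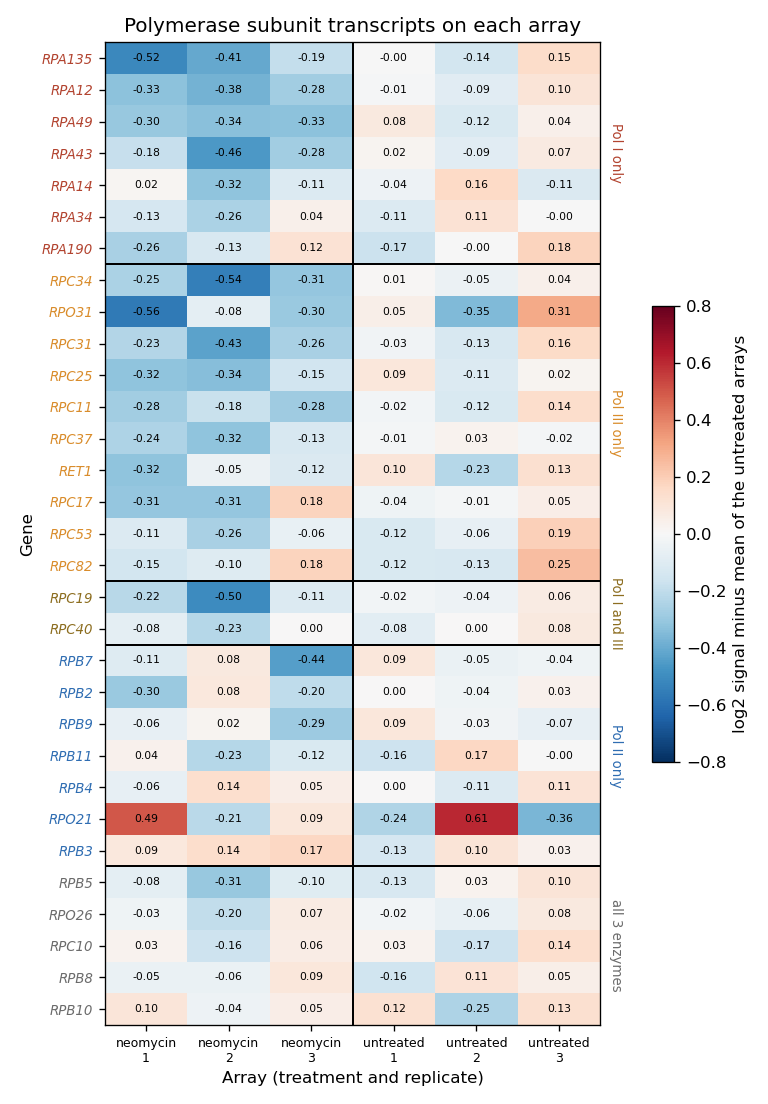
Signals of the 31 subunit genes (rows, ordered by enzyme and by log2 fold change) on the 3 neomycin and 3 untreated arrays (columns), each as the log2 signal relative to the untreated mean, with the value printed in its cell. *RPA135*, *RPA12*, *RPA49* and *RPA43* are below 0 on every neomycin array, while *RPO21* reads 0.49 on neomycin replicate 1 and 0.61 on untreated replicate 2.

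Among the subunits found only in RNA polymerase I, *RPA135* encodes the second-largest subunit, which forms the active site together with the largest. It read 11.04, 11.14 and 11.36 on the neomycin arrays against 11.55, 11.41 and 11.70 on the untreated arrays. The groups did not overlap, the highest neomycin reading lying just under the lowest untreated one, and the mean signal with neomycin was 0.773 of that without it, a log2 fold change of −0.37 (SE 0.13, limma adjusted p = 0.291). *RPA12*, whose product cleaves backtracked transcripts, read 9.93, 9.88 and 9.98 with neomycin and 10.25, 10.17 and 10.36 without it (−0.33, SE 0.10, adjusted p = 0.246). *RPA49*, which forms with Rpa34 a pair related to the factor TFIIF, read 10.03, 9.99 and 10.00 with neomycin and 10.41, 10.21 and 10.37 without it (−0.32, SE 0.10, adjusted p = 0.259). Both genes were lower on all 3 treated cultures, with little spread between them.

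*RPA43*, the stalk subunit that receives the initiation factor Rrn3, was also lower on each neomycin array (−0.31, SE 0.11, adjusted p = 0.316), although neither it nor any other of these genes passed. After the second quantile normalisation its arrays overlapped. The arrays of the remaining members of this enzyme overlapped: *RPA14*, the stalk partner of Rpa43, had a log2 fold change of −0.14, *RPA34*, the partner of Rpa49, −0.12 and *RPA190*, the largest subunit, −0.091. The difference between partners was not tested. *RPA43* and *RPA190* are next to each other on the chromosome, and of this pair only *RPA43* had groups that did not overlap. For *RPA190* the 95% interval ran from −0.41 to 0.23, which includes the values of *RPA135* and *RPA12*. Over the 7 genes the median was −0.31, and 4 did not overlap, beside 12.8% of all genes with neomycin below.

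Among the 10 genes of RNA polymerase III alone, *RPC34* had the lowest value. Its product belongs, with Rpc82 and Rpc31, to a trimer that acts in initiation, and it contacts the factor Brf1. *RPC34* read 8.92, 8.63 and 8.87 with neomycin and 9.19, 9.13 and 9.21 without it, a ratio of 0.777 (−0.37, SE 0.11, adjusted p = 0.242, the lowest among the subunits). Its groups stood 0.21 apart, the widest gap of the 10 genes that did not overlap. *RPC31*, of the same trimer, read 9.35, 9.16 and 9.33 with neomycin and 9.56, 9.46 and 9.74 without it (−0.31, SE 0.12, adjusted p = 0.333). *RPC82*, the largest of the trimer, had a log2 fold change of −0.0255 (95% interval −0.36 to 0.31), which turned to 0.0078 after quantile normalisation and to 0.010 with centring.

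*RPC25*, a stalk subunit needed for initiation, had a log2 fold change of −0.27 (SE 0.11), *RPC11*, which cleaves transcripts and acts in termination and reinitiation, −0.25 (SE 0.11) and *RPC37*, which acts with Rpc53 in termination, −0.23 (SE 0.10), with adjusted p-values of 0.348, 0.376 and 0.371. None of the 3 had overlapping groups, all neomycin readings being the lower ones, with a gap of only 0.043 for *RPC25*. The arrays overlapped for *RET1*, the second-largest subunit (−0.16), *RPC17*, the stalk partner of Rpc25 (−0.15), and *RPC53* (−0.14). The largest subunit, *RPO31*, had one of the lowest values and one of the widest spreads of this enzyme: it read 9.10, 9.59 and 9.37 with neomycin and 9.71, 9.31 and 9.97 without it (−0.31, SE 0.19, adjusted p = 0.533). Here untreated replicate 2 lay among the neomycin arrays. Over the 10 genes the median was −0.24, and 5 did not overlap, beside 12.8% of all genes with neomycin below.

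*RPC19* and *RPC40* encode the alpha-like pair on which RNA polymerases I and III are both assembled. *RPC19* read 10.45, 10.16 and 10.56 with neomycin and 10.65, 10.63 and 10.73 without it (−0.28, SE 0.12, adjusted p = 0.385), so that the groups did not overlap. *RPC40* read 10.77, 10.62 and 10.85 with neomycin and 10.76, 10.85 and 10.92 without it (−0.10, SE 0.11, adjusted p = 0.752), so that they did. Neomycin replicate 2 had the lowest reading of both genes, and it was also the lowest neomycin array for 8 of the 10 genes that did not overlap, against 1 for each of the other neomycin arrays.

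**Figure D2:**
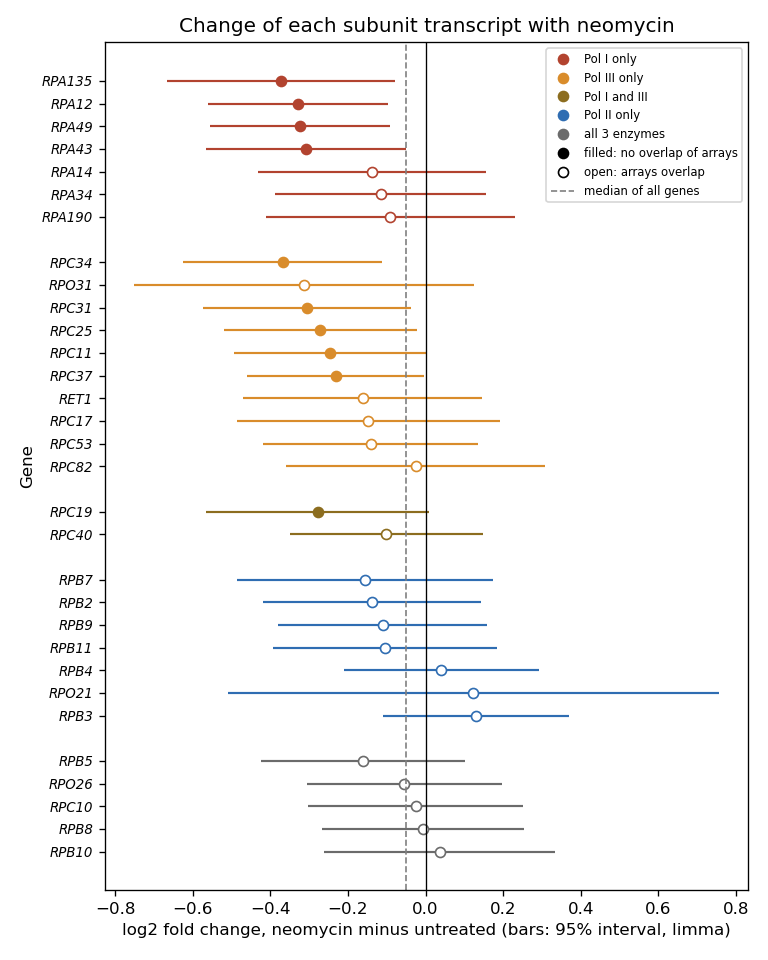
Log2 fold change of each subunit gene, neomycin minus untreated, with limma's 95% interval, for n = 3 arrays per group, colours marking the enzyme. Filled points, the 10 genes whose arrays did not overlap, all belong to RNA polymerase I, III or both, and the dashed line marks the median of all genes, −0.051.

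Of the 7 genes of RNA polymerase II, 0 had groups that did not overlap, beside 12.8% of all genes with neomycin below and 5.58% above. Among so few genes a count of 0 is not far from these shares. *RPB7*, a stalk subunit, had the lowest value of this enzyme, and read 10.18, 10.37 and 9.85 with neomycin and 10.38, 10.24 and 10.25 without it (−0.16, SE 0.14, adjusted p = 0.703). Its lowest and next-to-highest readings were both on neomycin arrays. *RPB2*, the second-largest subunit, read 10.34, 10.72 and 10.43 with neomycin and 10.64, 10.60 and 10.67 without it (−0.14, SE 0.12, adjusted p = 0.691), neomycin replicate 2 being the highest array of all. *RPB3*, the larger alpha-like subunit, read 9.86, 9.91 and 9.94 with neomycin and 9.64, 9.88 and 9.81 without it (0.13, SE 0.10, adjusted p = 0.653). It was the only subunit whose neomycin arrays stood above the untreated ones after quantile normalisation or centring.

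*RPO21*, the largest subunit of RNA polymerase II, which carries the heptad-repeat tail, had the widest interval of the 31. It read 10.11, 9.40 and 9.70 with neomycin and 9.37, 10.22 and 9.25 without it (0.12, SE 0.27, 95% interval −0.51 to 0.76). Neomycin replicate 1 and untreated replicate 2 were its high arrays, and the same arrays were the low ones for *RPO31*. Without untreated replicate 2 the log2 fold change of *RPO21* was 0.43, and without neomycin replicate 1 it was −0.062. *RPB9*, which acts in start site choice and fidelity, *RPB11*, the smaller alpha-like subunit, and *RPB4*, the stalk partner of Rpb7, had log2 fold changes of −0.11, −0.10 and 0.041. The median over the 7 genes was −0.10.

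**Figure D3:**
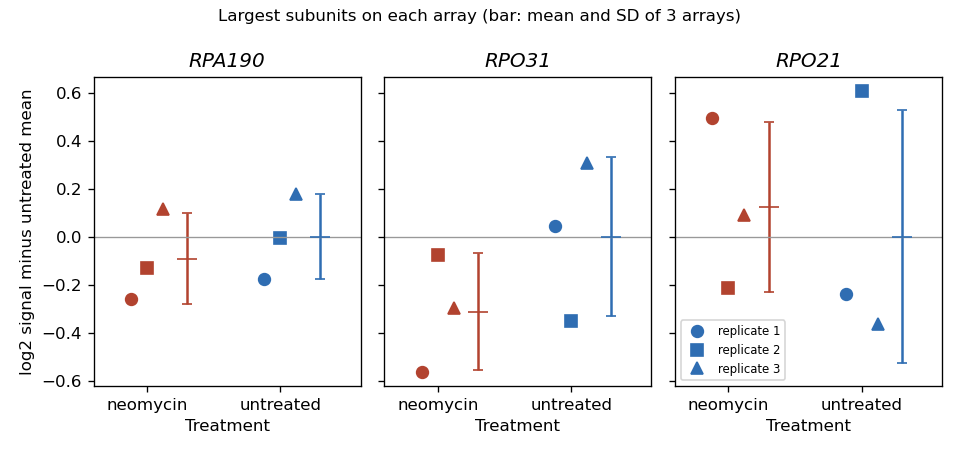
Log2 signals of the largest subunit of RNA polymerases I (*RPA190*), III (*RPO31*) and II (*RPO21*), array by array and relative to the untreated mean, with the mean and SD of the 3 arrays of a group beside the points. The 3 panels share the axis, and *RPO21* spans from −0.36 to 0.61 over the untreated arrays alone.

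The 5 common subunits had a median of −0.026. *RPB5*, which contacts the DNA ahead of the active site, read 10.87, 10.64 and 10.85 with neomycin and 10.82, 10.97 and 11.05 without it (−0.16, SE 0.11, adjusted p = 0.610). *RPO26*, needed for assembly and stability, read 11.51, 11.34 and 11.61 with neomycin and 11.52, 11.48 and 11.62 without it (−0.054, SE 0.11, adjusted p = 0.882). *RPB10*, a small zinc-binding subunit, read 11.25, 11.12 and 11.21 with neomycin and 11.27, 10.90 and 11.28 without it (0.037, SE 0.13, adjusted p = 0.940). *RPC10*, another zinc-binding subunit which despite its name is part of every one of the 3 enzymes, and *RPB8* had log2 fold changes of −0.026 and −0.0067. The direction of these last 2 genes turned when each array was centred on its median. A p above the threshold does not show that these transcripts were level: the half-widths of the 95% intervals ran from 0.23 to 0.63 over the 31 genes, with a median of 0.27, and the interval of *RPB10*, from −0.26 to 0.33, ends on the lower side close to the value of *RPC25*.

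**Figure D4:**
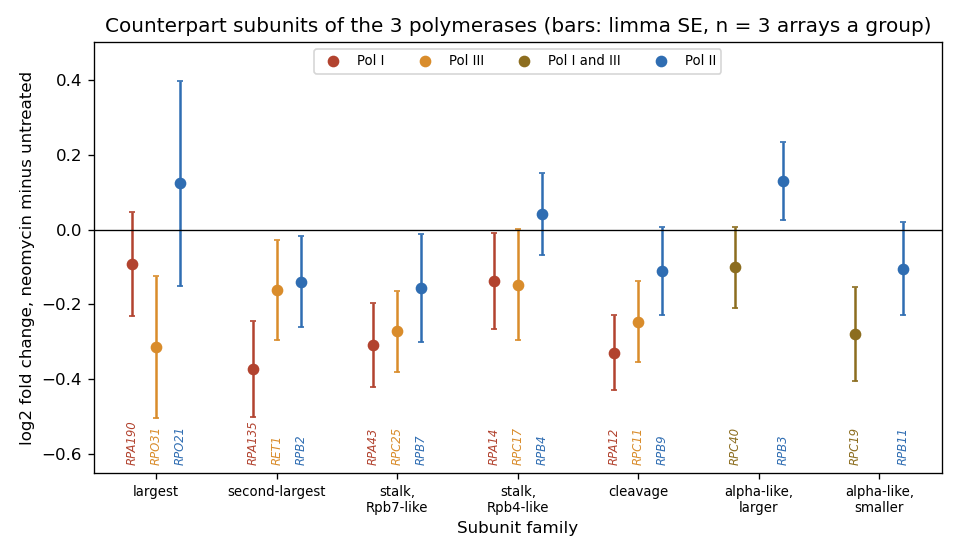
Log2 fold changes, neomycin minus untreated, of counterpart subunits of RNA polymerases I, III and II in 7 families, with limma's SE (n = 3 arrays per group). In each family the point of RNA polymerase II is the highest, most narrowly for *RET1* and *RPB2*.

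Because the 3 enzymes are built from counterpart subunits, 12 subunits of RNA polymerases I and III could be set against the subunit that holds the same place in RNA polymerase II. This pairing was chosen after the values had been seen. The difference of 2 log2 signals on 1 array is not moved by centring that array, but quantile normalisation can move it. All 12 differences were lower with neomycin than without it, with a median of −0.18 and a range from −0.44 for *RPO31* against *RPO21* to −0.023 for *RET1* against *RPB2*. The first of these carries the spread of *RPO21*. The cleavage subunits *RPA12* and *RPC11* differed from *RPB9* by −0.22 and −0.14, the stalk subunits *RPA43* and *RPC25* from *RPB7* by −0.15 and −0.12, and their partners *RPA14* and *RPC17* from *RPB4* by −0.18 and −0.19. The comparisons share 5 of the counterparts and subtract log2 fold changes already given above, so that they are not separate results. In an exact 2-sided permutation test, which for 3 arrays against 3 cannot give a p under 0.1, only *RPC40* against *RPB3* reached 0.1 (−0.23, adjusted to 0.75 over the 12 pairs), and it was the only pair whose groups did not overlap, beside 9.77% of all ordered pairs of genes. Neomycin replicate 3 lay within or above the untreated range in the other pairs of the cleavage, stalk and alpha-like families.

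The array medians show how evenly the 3 treated cultures contributed. On neomycin replicates 1, 2 and 3, relative to the untreated mean, the 7 genes of RNA polymerase I had medians of −0.26, −0.34 and −0.19, against −0.0081, −0.091 and 0.071 on untreated replicates 1, 2 and 3. The 10 genes of RNA polymerase III had −0.26, −0.28 and −0.14, against −0.018, −0.11 and 0.14. The 7 genes of RNA polymerase II had −0.063, 0.076 and −0.12, against 0.0032, −0.027 and −0.0025, and the common subunits −0.034, −0.16 and 0.060, against −0.020, −0.056 and 0.10. For RNA polymerases I and III the neomycin arrays lay below the untreated arrays, most narrowly for neomycin replicate 3 and untreated replicate 2 of RNA polymerase III, while for RNA polymerase II and the common subunits the groups overlapped. Neomycin replicate 2 had the lowest medians for RNA polymerases I and III although its median over all genes was the highest of the treated arrays.

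**Figure D5:**
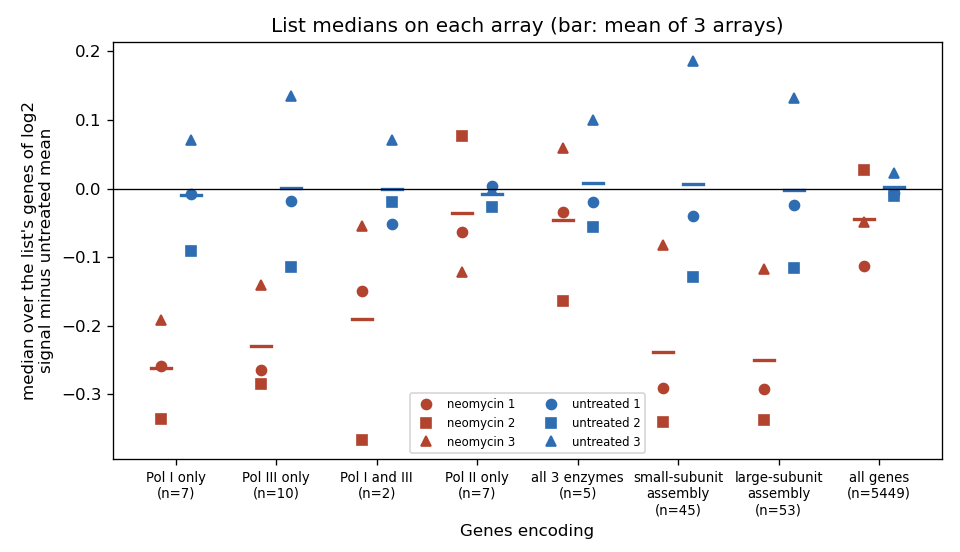
Median, over the genes of each list, of the log2 signal minus the untreated mean on each neomycin (left) and untreated (right) array, the horizontal bars being the means of 3 arrays. The neomycin arrays lie below the untreated arrays for RNA polymerases I and III and, narrowly, for the pair they share and the large-subunit assembly list. For the small-subunit assembly list this holds apart from neomycin replicate 3. The groups overlap for RNA polymerase II, the common subunits and all genes.

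The factors that work with the enzymes were described by lists of 9 to 18 genes. None of their members passed the test across all genes. The 9 factors of RNA polymerase I had a median of −0.13. Only *UAF30*, of the upstream activating factor, was lower on each neomycin array (−0.33, SE 0.13, adjusted p = 0.338). That is 11.1% of the list, beside 12.8% of all genes. In the opposite direction stood *HMO1*, an HMG-box protein that binds the ribosomal DNA and ribosomal protein genes, with 11.40, 11.68 and 11.60 with neomycin and 11.13, 11.23 and 10.99 without it (0.44, SE 0.12, adjusted p = 0.191). Its arrays did not overlap, and its log2 fold change was larger in size than that of any polymerase subunit. The 9 factors of RNA polymerase III, those of TFIIIA, TFIIIB and TFIIIC, had a median of 0.011, and all overlapped. The 18 general factors of RNA polymerase II had a median of −0.058. Only *TFB2*, a subunit of TFIIH, was lower on each neomycin array (−0.32, SE 0.12, adjusted p = 0.326), 5.56% of the list. The 12 elongation factors had a median of −0.044, and none was lower on each neomycin array.

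Of 12 genes that act in the assembly and nuclear import of polymerases, all had log2 fold changes below 0 (median −0.13), beside 62.1% of all genes. Only *TAH1*, a subunit of the chaperone complex R2TP, was separated, 8.33% of the list beside 12.8% of all genes. It read 8.56, 8.37 and 8.50 with neomycin and 8.88, 8.80 and 9.07 without it (−0.44, SE 0.11, adjusted p = 0.177). The 9 regulators had a median of −0.16, and 2 of them were separated, beside 12.8% of all genes. *MAF1*, the repressor of RNA polymerase III, had a value of −0.13 (SE 0.20) and *SFP1*, an activator of ribosome biogenesis genes, −0.16 (SE 0.15). *DOT6* and *TOD6*, related repressors that bind the promoter element named after polymerases A and C, had opposite signs, 0.18 (SE 0.14) and −0.42 (SE 0.27), both with arrays that overlapped. *IFH1* and *FHL1*, which act at ribosomal protein genes, were lower on each neomycin array (−0.24 and −0.16, adjusted p = 0.429 and 0.507).

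Genes of ribosome assembly had values like those of RNA polymerases I and III. Of 45 genes of the small-subunit processome and its assembly factors, 43 had log2 fold changes below 0, with a median of −0.23, and 13 (28.9%) were lower on each neomycin array. Of 53 genes of large-subunit assembly, 53 had values below 0, with a median of −0.25, and 20 (37.7%) were lower on each neomycin array, beside 12.8% of all genes. The shares of the 7 genes of RNA polymerase I and the 10 of RNA polymerase III, 57.1% and 50%, rest on few genes, and a difference from the assembly lists was not tested. *FAF1* (−0.57, SE 0.16) had the lowest value among the separated genes of the small-subunit list, and *RRS1* (−0.49, SE 0.17), needed for maturation of the large subunit, that of the large-subunit list, with adjusted p-values of 0.223 and 0.286. As with the polymerases, 0 genes of either list passed across all genes, while 9 and 19 were lower at an unadjusted p under 0.05, beside 8.33% of all genes.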

How the data were processed

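The authors hybridised RNA from 3 untreated and 3 neomycin-treated cultures to Affymetrix Yeast Genome 2.0 arrays and made the deposited log2 signals with GCRMA, which adjusts the background, normalises between arrays and summarises probes. The sources used here give no version of it. No earlier step was repeated. Of 5716 probe sets 5498 name a gene, 218 name none and 0 several. Where probe sets shared a gene (47 genes), the brightest on average stood for it, giving 5449 genes, and no filter on low signal was used, so that all 31 members entered. Neomycin and untreated arrays were compared in R 4.3.3 by lmFit and eBayes of limma 3.58.1 (4.03 degrees of freedom in the prior). Its p-values are 2-sided and were adjusted over 5449 genes (Benjamini-Hochberg). The number of arrays limits the precision. Groups not overlapping means each neomycin array on one side of each untreated array. The Cyber-T test of the methods was rebuilt on log2 values with a confidence of 10, since its settings are not stated. The fit and the Cyber-T test were tested on simulated data. All members are named, with the value on every array for the 3 of each group with the largest change in size. Of each list of other genes up to 3 with the largest change among those not overlapping are named, and *RPO21*, *RPC40* and the regulators with overlapping arrays were described after their values were seen. The members and lists were chosen with earlier results of these data known. Planned comparisons of promoters and proteins were not run. Alternatives were the replicate block, quantile normalisation, centring, a filter on dim genes, the mean of probe sets, an intensity trend, a robust prior, an adjusted p under 0.1, the methods' criteria and leaving out each array.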

Additional observations from a re-analysis of the deposited data

How the results depend on the processing

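The count of subunits past the adjusted test was 0 in each direction under every alternative, the lowest adjusted p being 0.1503 (*RPC34* without neomycin replicate 1). Of 465 values of single subunits under the alternatives, 446 kept their direction and side of the threshold and 19 changed sign. Of these, 15 came with 1 array left out and 4 with quantile normalisation or centring. The remaining alternatives leave the log2 fold change of each subunit as it was. No sign could change there, so that the 446 include values fixed in advance. After quantile normalisation *RPC82* was at 0.0078, and with centring *RPC82*, *RPB8* and *RPC10* were at 0.0101, 0.029 and 0.0099. With 1 array left out *RPC82* ran from −0.13 to 0.099, *RPO21* from −0.062 to 0.43, *RPB8* from −0.086 to 0.050, *RPB4* from −0.015 to 0.095, *RPO26* from −0.12 to 0.016, *RPC10* from −0.11 to 0.043 and *RPB10* from −0.088 to 0.10. Subunits with neomycin arrays above numbered 1 after quantile normalisation or centring and 0 to 2 with 1 array left out, and those below 10 to 13 (32.3% to 41.9% of the subunits), beside 15.8% to 27.5% of all genes. Without neomycin replicate 2 they numbered 12 (38.7%), beside 27.5% of all genes. The median of the RNA polymerase II genes was −0.071 after quantile normalisation, −0.068 with centring and −0.11 to −0.015 with 1 array left out, that of the pair shared by I and III −0.26 to −0.10, those of RNA polymerases I and III −0.35 to −0.23 and −0.30 to −0.17 and that of the common subunits −0.088 to 0.018.

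Over all genes the calls, 23 higher and 5 lower, depended on the fit. Higher genes numbered 50 after quantile normalisation, 42 with centring, 40 without the dimmest genes, 48 with an intensity trend (14 lower), 59 at an adjusted p under 0.1 (23 lower), 79 by the methods' criteria (20 lower), and 0 to 119 (0 to 23 lower) with 1 array left out, the most without neomycin replicate 1. Deviations of same-numbered arrays from their group means correlated at −0.0003, −0.38 and 0.44, and only replicate 3 correlated best with its own number. Neomycin replicate 1 correlated at 0.40 with untreated replicate 2, and neomycin replicate 2 at 0.40 with untreated replicate 1. Deviations from a mean of 3 arrays depend on each other, so these values cannot settle whether the labelled numbers pair the arrays. What else arrays of the 2 groups may share was not tested. With the replicate block 0 genes were higher and 0 lower (284 and 378 at an unadjusted p under 0.05). The causes were not tested.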
